A study of Mus musculus with 12 samples.

Results

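In mouse striatum, a set of 42 genes, among them Igsf8, Glp2r, Copg2, Zhx3 and Rundc3b, carried at least 6.5 times as many YTHDF1 peaks in cocaine as in saline libraries. They were chosen by these measured values: a gene had to be listed for both treatments, and the ratio was that of its mean number of peaks in cocaine to its mean in saline. Of the 251 genes listed for both treatments, 65 passed that ratio. From these, 23 were set aside by name, 15 because they carry an opposite-strand, Rik or Gm name and 8 others singly (Ctnna3, Ube3a, Kcnq1, Pigk, Atp5o, Cnp, P2ry12 and Angptl2). The remaining 42 are 18 genes with a symbol and 24 without one, out of 1247 genes listed for either treatment. Because the ratio selected them, every difference between cocaine and saline given below for these genes is a description. That includes the calls of a statistical fit given later, which used the same contrast and from which nothing is read.

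The libraries came from the striatum of wild-type C57BL/6J mice that received either cocaine or saline, and no dose, duration or age is given in the labels. RNA crosslinked to YTHDF1 was precipitated with a monoclonal antibody (CLIP), with 3 libraries per treatment, and 3 input libraries per treatment were also made but their values were not analysed here. The measured value is the number of CLIP peaks that fell in a gene in one library. Library numbers 1 to 3 below are column positions within a treatment and pair nothing across treatments, and the labels do not state that they came from separate animals. The 6 libraries differed mainly by treatment in their total, with 24770 to 25528 listed peaks in cocaine and 3720 to 3944 in saline. The ratio cutoff of 6.5 lay close to the ratio of these totals, which cover 1049 genes for cocaine and 449 for saline. A gene near the cutoff therefore rose about as much as the listed total, and passing it does not set a gene apart from that total. Those totals cover different genes, however. Over the 251 genes listed for both treatments, the totals were 13759 to 13919 peaks in cocaine and 3177 to 3390 in saline. The median ratio of these genes was 4.54, so the cutoff lay above the typical shared gene. The reads behind the libraries are unknown, so a rise in peaks cannot be told apart from deeper sequencing. In whole tissue, a lower count also cannot distinguish fewer cells of a type from less RNA per cell. Of the defining markers of striatal projection neurons, the cell type that the labels come nearest to naming, 0 of 12 were listed for either treatment, and 0 of 4 general neuronal markers were. A gene whose peaks lay below a table's minimum (a mean of 6.33 peaks for cocaine and 1.33 for saline among the listed genes) is missing from it, so this does not show absence. In addition, 1700003D09Rik, which overlaps the striatal marker Ppp1r1b, was listed with means of 74.3 peaks in cocaine and 13.3 in saline. Whether any of those peaks belong to Ppp1r1b is unknown.

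YTHDF1 recognises RNA that carries N6-methyladenosine, a methyl mark placed on adenosines within a short consensus in messenger RNA and long non-coding RNA. In neurons, YTHDF1 is known for raising the translation of marked transcripts after stimulation and for a part in learning. The striatum receives dopamine from the midbrain, and cocaine prolongs the action of that dopamine by blocking its reuptake.

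Summed over the 42 genes, the cocaine libraries held 3064, 3187 and 3215 peaks and the saline libraries 370, 340 and 356. The cocaine mean of 3155.3 ± 80.3 was 8.88 times the saline mean of 355.3 ± 15.0 (SD over the 3 libraries of a treatment). Over the 153 shared genes that did not reach the ratio and had no excluded name pattern, the same sums were 6895.0 ± 125.8 and 2365.0 ± 66.1 peaks, 2.92 times as many. The 42 genes therefore made up 22.04, 23.16 and 23.10% of the peaks in all shared genes in the cocaine libraries and 11.4, 10.7 and 10.5% in the saline libraries. The libraries of a treatment lay close together. The groups did not overlap, which the ratio rule favours, so nothing is read from that gap. As a share of every listed peak, not only of those in shared genes, the values were 12.6 ± 0.510% in cocaine and 9.31 ± 0.398% in saline. The denominators of the second pair cover different genes, 1049 in the cocaine table and 449 in the saline table.

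In each of the 42 genes the lowest cocaine library exceeded the highest saline library. Over all 251 shared genes this held for 195, or 77.7%, and since the ratio chose the members nothing is read from their count. Their median ratio was 8.13, against 4.54 over all shared genes, and it ranged from 6.63 to 17.9.

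**Figure D1:**
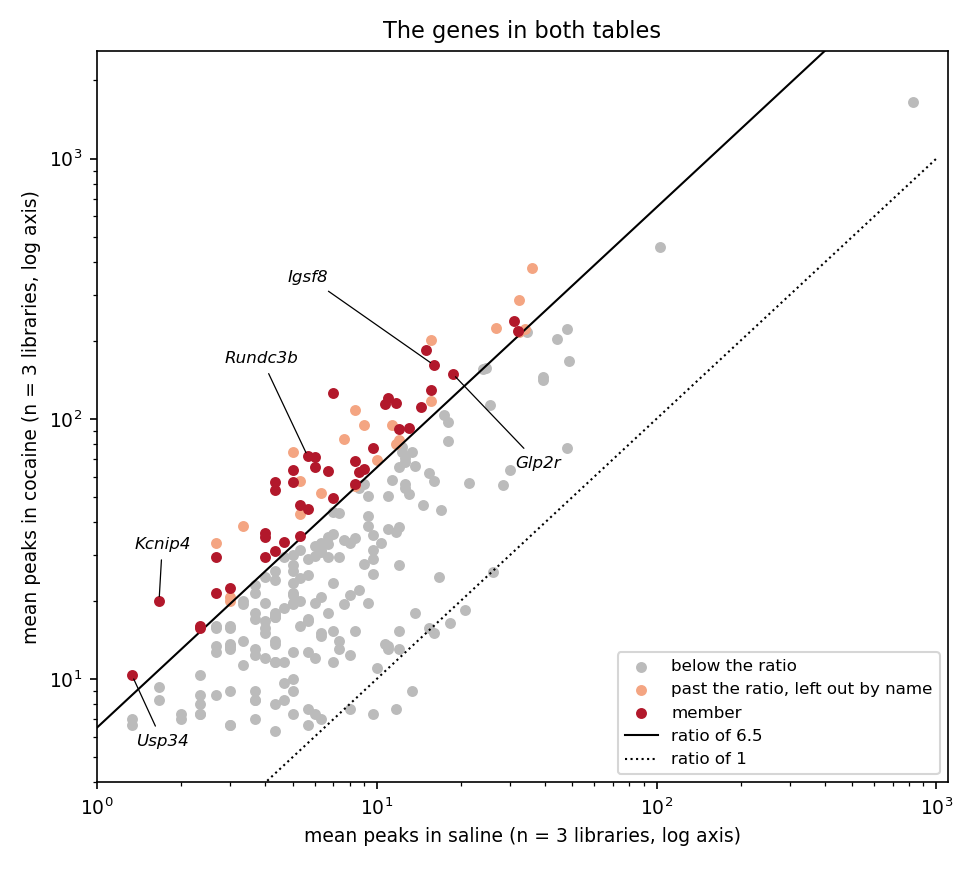
Mean number of YTHDF1 CLIP peaks per gene in cocaine (vertical, log axis) against saline (horizontal, log axis), 3 libraries each, with 1 point for each of the 251 genes in both tables; dark red points are the 42 members, light orange points the 23 genes set aside by name, and lines mark ratios of 6.5 and 1. The members run along the upper edge from Usp34, with 10.3 and 1.33 peaks, to genes with over 100 peaks in cocaine.

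Among genes of membrane receptors and adhesion, Igsf8 had the most peaks. Igsf8 encodes an immunoglobulin superfamily protein of the cell surface that associates with tetraspanins, and lies on chromosome 1 from 172312367 to 172319843 (mm10). It had 133, 168 and 182 peaks in the cocaine libraries and 17, 12 and 19 in the saline libraries. All 3 cocaine libraries were far above all saline libraries, and the ratio of the means was 10.1 (exact 95% interval 7.47 to 13.8, for counting error only). It is the shortest of the 18 members with a symbol, at 7.48 kb, and per length it carried the most peaks, 21.5 per kb in cocaine and 2.14 per kb in saline. No other RefSeq gene overlaps it. Genes without a symbol have no position here, so an overlap with one of them could not be checked. Of 20 adhesion genes of the immunoglobulin superfamily, Igsf8 alone was listed for cocaine. For saline 5 were listed, the others being Cadm2, Dscam, Nrcam and Ntm. Of all 449 genes listed for saline, 251 were also listed for cocaine. The lowest listed mean was 6.33 peaks for cocaine and 1.33 for saline. A gene listed for saline alone may therefore still have had peaks in cocaine, and no loss is read from these counts.

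Glp2r, the receptor of glucagon-like peptide 2, had 142, 160 and 145 peaks in the cocaine libraries and 18, 17 and 21 in the saline libraries. These were among the most even values of the set, with coefficients of variation of 6.47% and 11.2%, and the ratio was 7.98 (6.04 to 10.7). Glp2r lies on chromosome 11 from 67664156 to 67771184, where its span overlaps Gas7 and Rcvrn, neither of which is in the tables. It was the only listed gene among 15 receptors of its family, the peptide hormone (class B) receptors. Notch3, a receptor of the Notch family known from the smooth muscle cells and pericytes of blood vessels, had 15, 25 and 24 peaks in the cocaine libraries and 3, 2 and 3 in the saline libraries. With so few saline peaks its ratio of 8.0 has a counting interval of 3.83 to 19.3. Among 6 markers of vascular cells, 0 were listed for cocaine and Pecam1 was listed for saline. Given the higher minimum for cocaine, this does not show a loss of Pecam1 peaks.

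Kcnip4 encodes a calcium-binding protein that associates with voltage-gated A-type potassium channels. It had 20, 23 and 17 peaks in the cocaine libraries and 3, 1 and 1 in the saline libraries. Its ratio, 12, was the second highest of the members with a symbol, but it rests on 5 saline peaks in all, and the counting interval runs from 4.87 to 38.3. It is also the longest of them, at 1136 kb (chromosome 5 from 48389503 to 49525122), with 0.0176 peaks per kb in cocaine.

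Several members act on or through small GTPases, a group assembled here after the values were seen. Rundc3b, a protein with a RUN domain of the kind found in partners of small GTPases, had 76, 64 and 75 peaks in the cocaine libraries and 5, 5 and 7 in the saline libraries. It had the highest ratio of the members with a symbol, 12.6 (7.72 to 22.1), and it reached 6.5 in each of the 9 pairings of 1 cocaine with 1 saline library. It lies on chromosome 5 from 8490336 to 8623084 and overlaps Abcb1a, the gene of a drug efflux transporter, on the opposite strand. Fntb, the beta subunit of the enzyme that attaches farnesyl to Ras proteins, had 65, 47 and 80 peaks in the cocaine libraries and 14, 5 and 8 in the saline libraries. Its libraries spread widely: 5 of the 9 pairings reached the ratio, and the lowest gave 3.36. Rassf8, a protein with a Ras-association domain, had 52, 64 and 33 peaks against 9, 10 and 2. Dock1, an exchange factor that activates Rac, had 20, 11 and 16 peaks against 3, 3 and 1. Of 18 regulators and effectors of small GTPases in the fixed list, Rundc3b, Dock1 and Arhgap21 were in both tables, and Arhgap21, a GTPase-activating protein with a cocaine to saline ratio of 0.987, is not a member.

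Dock1 illustrates a limit of the tables. Its span on chromosome 7, from 134670687 to 135173647, contains Insyn2a on the opposite strand, which was listed on its own with 35.0 peaks in cocaine and 6.67 in saline, more than Dock1 in both. The tables give no position or strand of a peak, so peaks of these neighbours cannot be separated.

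**Figure D2:**
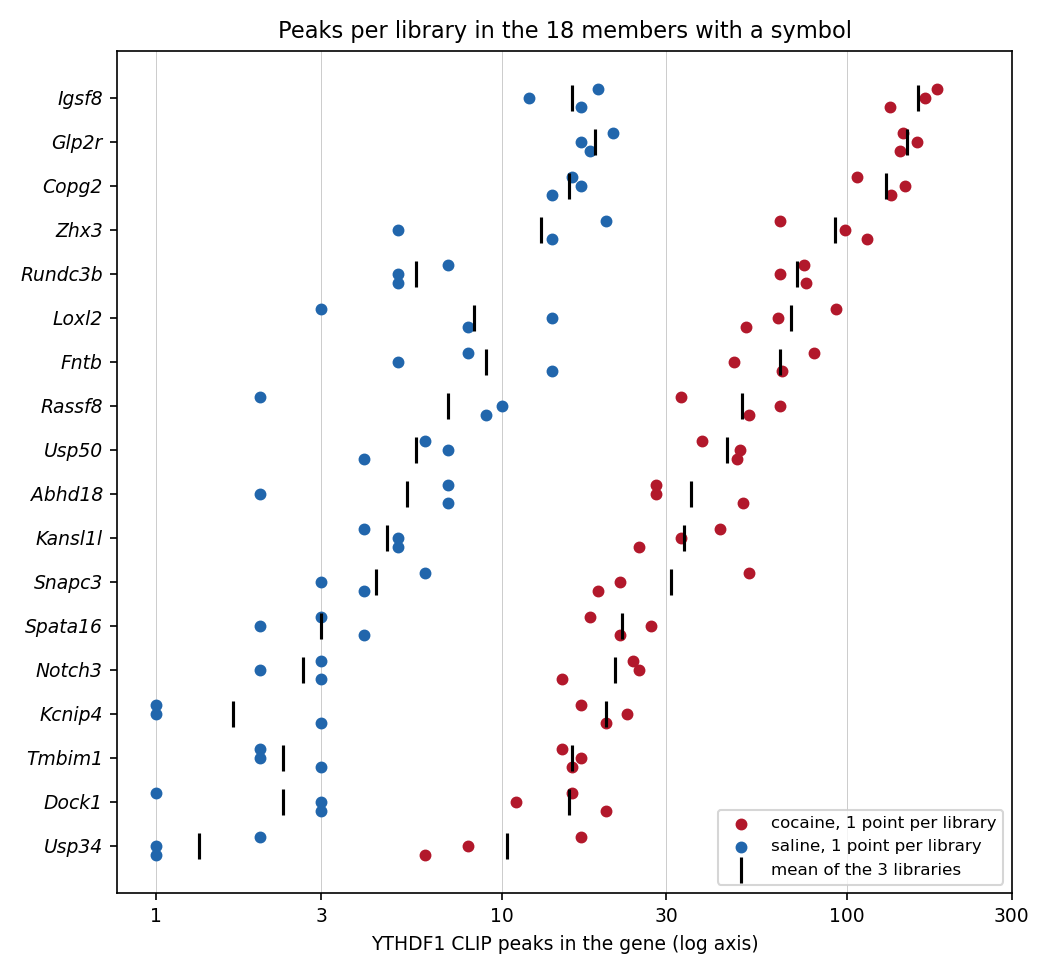
Number of YTHDF1 CLIP peaks per library (log axis) in the 18 members with a symbol, ordered by their cocaine mean; red points are the 3 cocaine libraries, blue points the 3 saline libraries and black bars the mean of each treatment. Igsf8 at the top has 133 to 182 peaks in cocaine and 12 to 19 in saline, and Usp34 at the bottom 6 to 17 and 1 to 2.

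Members of membrane traffic and protein turnover had cocaine means from 10.3 peaks (Usp34) to 129.3 (Copg2), where the highest of the set was 238.3. Copg2, a gamma subunit of the COPI coat of Golgi vesicles, had 134, 147 and 107 peaks in the cocaine libraries and 14, 17 and 16 in the saline libraries, a ratio of 8.26 (6.09 to 11.4). It lies on chromosome 6 from 30747554 to 30896815, and its end overlaps the imprinted gene Mest on the opposite strand. Mest was in neither table under its symbol. The ubiquitin-specific protease gene Usp50 had 48, 49 and 38 peaks in the cocaine libraries and 4, 7 and 6 in the saline libraries. Usp34, a second gene of this protease family, had the fewest peaks of any member, 6, 8 and 17 in cocaine and 1, 1 and 2 in saline. Cocaine library 3 held more of its peaks than the other two cocaine libraries together, and its ratio of 7.75 has a counting interval of 2.74 to 30.2. Tmbim1, a multipass membrane protein, had 16, 17 and 15 peaks against 3, 2 and 2. Pnkd overlaps it on the opposite strand and was itself listed in both tables, at 6.33 peaks for cocaine and 4.33 for saline.

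Genes of transcription and chromatin came next. Zhx3, a transcription factor gene with zinc fingers and homeoboxes, had 114, 99 and 64 peaks in the cocaine libraries and 14, 5 and 20 in the saline libraries. The ratio of its means was 7.10, but single pairings of libraries ran from 3.20 to 22.8. It overlaps Plcg1, a phospholipase gene on the opposite strand that was listed for cocaine alone with 23.3 peaks. Snapc3, a subunit of the complex that starts transcription of small nuclear RNA genes, had 19, 22 and 52 peaks against 4, 3 and 6, so that its mean leaned on cocaine library 3. It overlaps Psip1, which was listed for cocaine alone with 12.3 peaks. Kansl1l, a relative of a subunit of the NSL histone acetyltransferase complex, had 25, 33 and 43 peaks against 5, 5 and 4.

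Loxl2, Spata16 and Abhd18 complete the members with a symbol. Loxl2 encodes a lysyl oxidase that crosslinks collagen, and had 51, 63 and 93 peaks in the cocaine libraries and 8, 14 and 3 in the saline libraries. At a distance of 131238 bases on chromosome 14 lies Gm21451, a protein-coding model of nearly the same length, 87.0 against 87.1 kb. Gm21451 had 62, 74 and 97 peaks in the cocaine libraries and 9, 21 and 7 in the saline libraries. Both genes were highest in cocaine library 3 and in saline library 2, and how reads that fit more than 1 place were treated is not given in the sources used here, so the count of either is uncertain. Its ratio of 6.30 left Gm21451 just outside the cutoff. Spata16, a gene of sperm development, had 22, 27 and 18 peaks against 4, 2 and 3. Abhd18, named for its hydrolase fold, had 50, 28 and 28 against 7, 2 and 7, and its ratio of 6.63 was the lowest of the set. The members nearest to it inside the cutoff were Dock1 at 6.71 and a gene without a symbol at 6.76. Just outside, besides Gm21451, were 2 genes without a symbol at 6.49 and 6.36.

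The 24 members without a symbol held most of the peaks of the set, 2118.7 ± 57.2 per cocaine library and 228.7 ± 4.73 per saline library, against 1036.7 ± 25.1 and 126.7 ± 12.1 for the 18 with a symbol. Genes were set aside by name only among those with a symbol. Before that step, genes without a symbol made up 24 of the 65 past the ratio (36.9%) and 57 of the 186 below it (30.6%), a difference that was not tested. The tables do not pair these identifiers with names, and what the genes encode was not determined here. Those with the most peaks were ENSMUSG00000097560, whose cocaine libraries held 237, 231 and 247 and saline libraries 31, 25 and 37, and ENSMUSG00000097263, with 222, 167 and 263 against 31, 39 and 26. The highest ratio, 17.9 (11.5 to 29.3), was that of ENSMUSG00000097695, which had 155, 128 and 93 peaks in the cocaine libraries and 8, 6 and 7 in the saline libraries. One other gene without a symbol had 81, 25 and 84 peaks in the cocaine libraries and 3, 11 and 1 in the saline libraries, so that cocaine library 2 held only 2.27 times the peaks of saline library 2.

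The median saline mean was 6.0 peaks in the members and 6.33 in the shared genes below the ratio, with highest values of 32.0 and 825.3. The medians in cocaine were 62.8 and 19.3. Both means enter the ratio that chose the members, so nothing is read from these levels. The coefficient of variation between cocaine libraries had a median of 23.9% in the members and 27.1% below the ratio, and between saline libraries 35.3% and 39.8%. With a median of 6.0 peaks in saline, single ratios are imprecise. The counting interval of the ratio reached below 6.5 for 29 of the 42 members, Igsf8 and Rundc3b being the exceptions among those with a symbol. In 8 members every pairing of libraries reached 6.5, including Igsf8, Rundc3b and Glp2r. No single library was highest throughout: cocaine library 1 was highest in 10 members, library 2 in 15 and library 3 in 16. Without cocaine library 1, 4 of the 42 members fell below the ratio (Zhx3, Abhd18, Dock1 and 1 without a symbol). Without cocaine library 2 it was 2 members (Rassf8 and 1 without a symbol), and without cocaine library 3 it was 5 (Kansl1l, Snapc3, Fntb, Usp34 and 1 without a symbol). Omitting saline library 1 took 0 members below it. Omitting saline library 2 took 7 (Tmbim1, Snapc3, Fntb, Zhx3, Abhd18, Spata16 and 1 without a symbol), and omitting saline library 3 took 8 (Tmbim1, Rassf8, Loxl2, Dock1 and 4 without a symbol).

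The difference in share of peaks was then described with a fit over all shared genes (edgeR's quasi-likelihood model on totals scaled by TMM factors), which sets aside the difference in the scaled totals of the tested genes. Of the 42 members, 38 passed its filter on low counts, and Dock1, Notch3, Tmbim1 and Usp34 did not. The log2 difference in share, cocaine minus saline, ranged from 0.42 (SE 0.50) for Abhd18 to 1.85 (SE 0.34) for ENSMUSG00000097695, with a median of 0.77, against a median of -0.02 over all 202 tested genes. Rundc3b had 1.35 (SE 0.38), Kcnip4 1.26 (SE 0.54), Igsf8 1.02 (SE 0.26), Copg2 0.73 (SE 0.26) and Glp2r 0.69 (SE 0.23). At a false discovery rate of 0.05, 12 of the 38 were called higher in cocaine, namely Igsf8, Rundc3b, Copg2, Glp2r and 8 genes without a symbol, where 10.4% of all tested genes were called. These calls come from the contrast that chose the members and nothing is read from them. Copg2 was called under none of 6 fits that each left out 1 library, Glp2r under 1, Rundc3b under 3 and Igsf8 under 4. Without cocaine library 1, 2 or 3 in turn, 3, 3 and 2 members were called, out of 27, 26 and 26 that passed the filter. Without saline library 1, 2 or 3 in turn, 5, 8 and 12 were called, out of 41 each time.

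**Figure D3:**
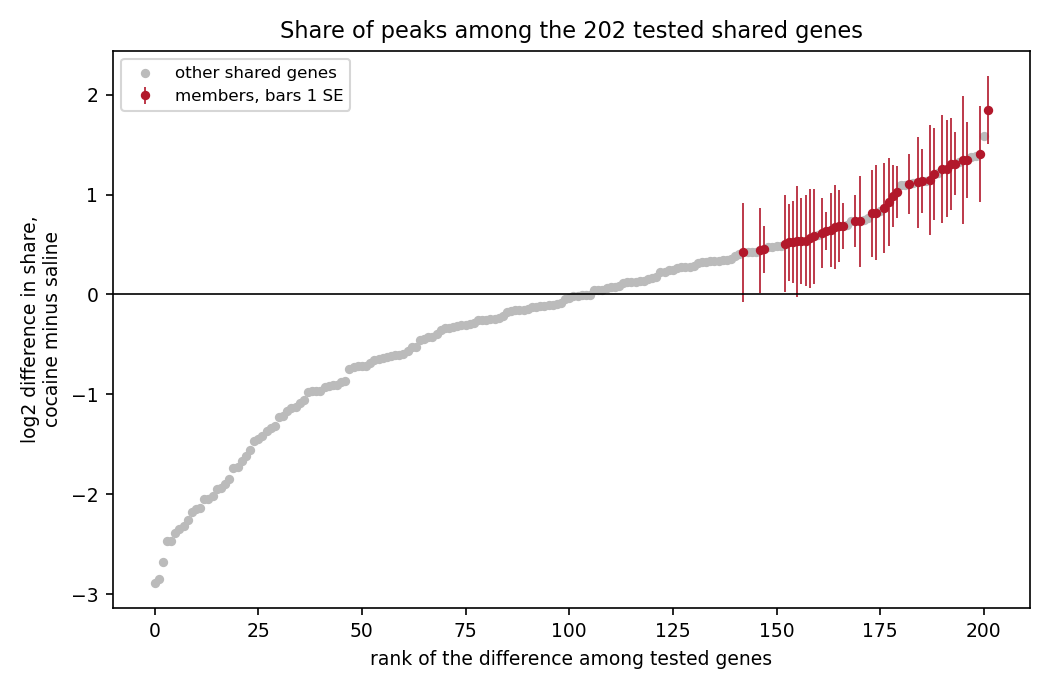
Log2 difference in share of peaks, cocaine minus saline (vertical), for the 202 tested shared genes in order of that difference (horizontal); red points are the 38 tested members with bars of 1 SE, and grey points are the other shared genes. Tested members lie between 0.42 and 1.85.

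Gene length, overlap and promoters were not used by the rule. All 18 members with a symbol were found in RefSeq (GRCm38.p6) and are protein-coding, which the exclusion of opposite-strand, Rik and Gm names favours. They lie on 11 chromosomes, with at most 3 on 1 chromosome. Their median length was 92.7 kb, against 102 kb for the 94 coding genes below the ratio. Per length, the medians were 0.604 and 0.192 peaks per kb in cocaine and 0.0867 and 0.0734 peaks per kb in saline. Unlike length, these values hold the peak numbers that the rule used, so their difference in cocaine is not separate from the selection. Another coding gene overlapped 10 of the 18 (55.6%) and 37 of the 94 (39.4%), a difference that was not tested. Strands were known only for genes with a promoter in the RefSeq table, which gave 16 of the 18 members and 75 of the 94 other genes. Of these 16, 12 overlapped a gene known to lie on the opposite strand and 0 one known to lie on the same strand, against 41 and 7 of the 75. Overlapping genes of unknown strand, such as Gas7 and Rcvrn beside Glp2r, are not in these counts. Of the genes with a symbol that overlap a member, 5 were in a table themselves (Ahsa2, Psip1, Plcg1, Pnkd and Insyn2a), each beside a different member. Listed genes without a symbol have no position here and could not be counted.

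The promoters of Igsf8, Glp2r and Copg2 are shown because these are the members with a symbol and the most peaks, and because no peak is corrected here for how much RNA the gene made. Each is the 250 bases before a RefSeq transcription start (GRCm38.p6), 5′ to 3′ on the gene's strand: Igsf8 chr1:172312117-172312366 (plus), Glp2r chr11:67771154-67771403 (minus) and Copg2 chr6:30896795-30897044 (minus). Capitals mark the letters of the motifs searched.
Igsf8: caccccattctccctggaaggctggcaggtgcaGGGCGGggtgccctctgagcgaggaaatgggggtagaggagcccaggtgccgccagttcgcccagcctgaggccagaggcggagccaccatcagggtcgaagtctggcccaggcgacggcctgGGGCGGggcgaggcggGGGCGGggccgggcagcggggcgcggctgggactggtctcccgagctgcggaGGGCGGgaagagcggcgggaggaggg
Glp2r: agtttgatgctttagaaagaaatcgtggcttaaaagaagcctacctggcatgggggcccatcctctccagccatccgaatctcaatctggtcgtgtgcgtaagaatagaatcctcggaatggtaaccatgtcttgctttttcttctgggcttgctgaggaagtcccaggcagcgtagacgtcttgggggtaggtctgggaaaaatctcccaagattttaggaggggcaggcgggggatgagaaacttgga
Copg2: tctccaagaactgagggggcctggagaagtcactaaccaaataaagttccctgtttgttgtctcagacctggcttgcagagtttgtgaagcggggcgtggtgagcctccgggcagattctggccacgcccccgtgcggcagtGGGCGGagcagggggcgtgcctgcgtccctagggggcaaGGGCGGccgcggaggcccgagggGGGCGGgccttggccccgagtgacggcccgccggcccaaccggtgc
The windows of Igsf8 and Copg2 are rich in G and C (74.8 and 68.4%) and hold 4 and 3 GC boxes, and the Glp2r window (50.4%) holds none of the motifs. The motifs, searched on both strands, were the cyclic AMP response element (TGACGTCA), the AP-1 site (TGANTCA), the GC box (GGGCGG), the CCAAT box (CCAAT) and the TATA box (TATAAA), and none of these contains another. The first 2 are bound by transcription factors known to respond to cocaine in the striatum. RefSeq gave 18 windows for 16 of the 18 members. The cyclic AMP response element was in 0 of the 18 windows, against 0.971% of 103 windows of other shared coding genes and 1.55% of all 32851 windows. The AP-1 letters were in 1 window, that of Kcnip4 (5.56%, against 6.80% and 6.75% of the same 2 sets). The GC box was in 11 of 18 (61.1%), against 46.6% and 32.7%, and 42.6% of all windows of coding genes. The CCAAT box was in 5 of 18 (27.8%, against 33.0% and 33.9%) and the TATA box in 1 (5.56%, against 12.6% and 12.4%). These differences were not tested. A match or its absence describes these letters in these windows only.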

How the data were processed

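Each deposited table gives, per the file headers, the count of CLIP peaks that a gene had in each of 3 libraries of a treatment, and the authors' mean of the 3, a deposited signal used only to check the columns. For tools and build, the submitters' processing notes list STAR, cutadapt and mm10, with no role or version. The table names point to CLIPper. Not given in the sources used here are its settings, the treatment of duplicate and multiply placed reads, any use of input, and how peaks were assigned to genes. Tables were matched to treatments by the letter c or s in their names. Each gene was counted once.

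The members and gene lists were chosen with earlier results of these data known. Named genes are the 18 members with a symbol, those next to the cutoff, and members without a symbol only for the most peaks; ENSMUSG00000097695 and the gene with 81, 25 and 84 peaks were singled out after their values were seen. Intervals of ratios are exact binomial (95%) and cover counting error only; peaks of a gene are not independent. The count fit used edgeR 4.0.16 (R 4.3.3) on the 251 shared genes, with filterByExpr and TMM factors, tested on simulated data; its SE is the difference over the root of the quasi-likelihood F. Replicate spread may be technical. Alternatives were DESeq2 1.42.0, no factors, no filter and each library left out. Python 3.11.15, pandas 2.3.3, NumPy 2.4.6, SciPy 1.17.1 and matplotlib 3.10.9 were used.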

Additional observations from a re-analysis of the deposited data

How the results depend on the processing

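A ratio cutoff of 8 left 22 genes and a cutoff of 5 gave 73. The median of the libraries in place of the mean gave 54 (37 of the 42 among them), and adding 1 peak to both means gave 31. Leaving out 1 library gave 42 to 53 genes, and a median ratio of the 42 of 8.12 to 8.97 (reported, 8.13); 26 of the 42, among them Copg2, Glp2r, Igsf8, Kcnip4, Notch3, Rundc3b and Usp50, passed under all 6 omissions. Calls of a higher share numbered 12 members and 21 genes. With 1 library left out they ranged from 2 to 12 members and from 6 to 21 genes; without a cocaine library the filter left 103 to 108 genes to test, and without a saline library 240 to 241. Without TMM factors 16 members were called, and the median of all tested genes moved from -0.02 to 0.19 (log2); the split of calls was then 31 higher and 29 lower, against 21 and 36. DESeq2 gave 20 and 22, with 12 members. All tested members, 26 to 42 per setting, stayed above 0 under every setting run. The ratio rule favours this, so nothing is read from it. No paired analysis was possible because the columns carry no replicate number. Saline levels of a few peaks per gene limit the ratios.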
